A study of Homo sapiens with 8 samples.

Results

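LINC genes are long noncoding RNA genes that lie between protein-coding genes and carry the name LINC followed by a number. Here they were all rows of the deposited expression table with the biotype lncRNA and such a symbol, which gave 586 genes of 24598. The table also held 4645 other lncRNA genes and 15292 protein-coding genes. A further 17 rows with a LINC-numbered symbol had another biotype and were not included. The samples were cultures of CCD-1077Sk, a fibroblast line from normal human skin, used beyond passage 8 and sequenced as total RNA. The design addressed how celastrol alters the gene expression that TGFB1 brings about in skin fibroblasts. All 8 libraries were collected 6 h after treatment, 2 in each of 4 groups. Control cells received BSA, citric acid and DMSO, which are carriers without drug. TGFB1 cells received the cytokine TGFB1 with DMSO, at a dose not given in the sources here used. Celastrol cells received BSA, citric acid and 500 nM celastrol, a triterpenoid from the plant Tripterygium wilfordii, and the last group received TGFB1 with 500 nM celastrol. A single line was used, and it is not stated if both libraries of a group stem from separate dishes, so p-values cover the spread among libraries only, and that spread may be technical.

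Most long noncoding RNAs are made by RNA polymerase II, and many are capped, spliced and given a poly(A) tail like messenger RNAs, but they are on the whole less abundant and less stable. Part of their output is removed in the nucleus by the RNA exosome, and the Integrator complex ends many short noncoding transcripts early. A polymerase that fails to stop at the end of a coding gene can also copy the DNA behind it, and this downstream transcription is known from heat shock and other stresses, so the distance from a LINC gene to the coding gene upstream on the same strand is given for many of the members described. TGFB1 is a cytokine that signals through receptor kinases and SMAD proteins and drives matrix production in fibroblasts. Celastrol is known to activate the heat shock factor HSF1.

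RefSeq promoter windows of 300 bases (250 before to 50 after the annotated start, GRCh38.p14) were matched by symbol for 385 of the 586 members, and in 194 of them the RefSeq start lay within 100 bases of the start in the expression table. Each was searched on both strands for GAANNTTCNNGAA, the 3-unit element bound by heat shock factors, for TGANTCA, an AP-1 site, and for CAGACA, the core of a SMAD binding site, read as TGTCTG on the other strand. No motif contains another. The first 2 windows below belong to members that rose with celastrol, the next 2 to members that rose with TGFB1, and the last to the member with the second highest mean level, which was lower with TGFB1. Capitals mark the motif matches, and each sequence runs 5′ to 3′ on the strand of the gene.
LINC02324, chr14:65222298-65222597, minus strand, heat shock element: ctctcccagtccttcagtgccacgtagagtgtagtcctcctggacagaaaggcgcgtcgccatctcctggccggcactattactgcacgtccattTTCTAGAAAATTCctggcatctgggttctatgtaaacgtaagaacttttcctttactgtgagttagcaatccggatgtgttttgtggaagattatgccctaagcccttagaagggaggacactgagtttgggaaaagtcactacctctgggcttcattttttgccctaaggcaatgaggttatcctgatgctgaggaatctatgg
LINC01487, chr3:155240695-155240994, plus strand, TGTCTG: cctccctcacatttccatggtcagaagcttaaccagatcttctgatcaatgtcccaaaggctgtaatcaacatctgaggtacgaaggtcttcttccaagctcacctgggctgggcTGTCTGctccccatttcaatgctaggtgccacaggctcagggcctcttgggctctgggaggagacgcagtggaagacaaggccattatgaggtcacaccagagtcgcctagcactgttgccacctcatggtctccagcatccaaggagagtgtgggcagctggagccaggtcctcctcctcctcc
LINC01415, chr18:55781676-55781975, minus strand, AP-1 site: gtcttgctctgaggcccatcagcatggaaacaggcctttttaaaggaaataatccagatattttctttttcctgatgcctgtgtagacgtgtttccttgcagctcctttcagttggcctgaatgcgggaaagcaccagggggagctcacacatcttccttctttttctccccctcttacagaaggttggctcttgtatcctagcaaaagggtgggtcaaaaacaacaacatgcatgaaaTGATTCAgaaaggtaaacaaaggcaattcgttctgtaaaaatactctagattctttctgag
LINC00511, chr17:72640423-72640722, minus strand, no match: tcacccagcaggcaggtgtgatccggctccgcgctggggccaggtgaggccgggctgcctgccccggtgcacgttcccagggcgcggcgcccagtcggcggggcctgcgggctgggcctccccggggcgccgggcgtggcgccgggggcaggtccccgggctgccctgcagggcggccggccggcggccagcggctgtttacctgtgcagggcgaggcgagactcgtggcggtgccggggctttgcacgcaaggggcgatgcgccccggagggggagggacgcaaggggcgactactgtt
LINC00472, chr6:71420696-71420995, minus strand, no match: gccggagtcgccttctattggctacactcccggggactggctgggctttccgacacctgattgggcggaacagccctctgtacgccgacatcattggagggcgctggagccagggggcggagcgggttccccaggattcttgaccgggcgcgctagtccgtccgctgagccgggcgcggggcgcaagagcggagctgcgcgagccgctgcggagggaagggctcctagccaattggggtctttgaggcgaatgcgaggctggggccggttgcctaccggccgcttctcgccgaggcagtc

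The heat shock element of LINC02324 began at position -155 from the RefSeq start, the TGTCTG of LINC01487 at -135 and the AP-1 site of LINC01415 at -11. A match to the heat shock element was found in 2 of the 194 member windows (1.03%) and in 0.49% of all 35116 RefSeq promoter windows of this length. These 2 members were LINC02324 and LINC01620, and both were higher with celastrol on top of TGFB1, as were 121 of the 194 members with a window. LINC01620 could enter the test only through celastrol libraries. The AP-1 letters were present in 28 member windows (14.4%, against 7.71% of all windows), among them 5 of the 10 windows of members that rose with TGFB1 and 3 of the 22 windows of members that fell. CAGACA was present in 40 (20.6%, against 16.9% of all windows). Among members that rose with celastrol on top of TGFB1, 15.7% of 121 windows held an AP-1 match, and among the other 73 windows 12.3% did. A match describes letters in a window and does not show that a factor binds there.

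Values are normalized reads, that is, the estimated reads of a gene divided by a size factor of the library, and they are not scaled by gene length. The libraries held 20716707 to 42518320 estimated reads in genes, and a value of 0 leaves room for up to 3 reads (1.80 to 4.24 normalized reads). This limit covers counting error only. Every row of the table reached at least 11 estimated reads in some library, so genes below that in all 8 are not in it. The 10 fibroblast markers summed to between 381771 and 674411 normalized reads per library. Markers of other cells were mixed. The 2 measured keratinocyte markers summed to 879 to 1063 over all libraries, nearly all of it KRT10, while TP63 was at 0 in all 4 libraries without celastrol. The 3 immune markers summed to 245 to 369 without celastrol and 374 to 516 with it, mostly CD68 (234 to 433). The 4 endothelial markers summed to 52.7 to 98.9 and 354 to 465, with PECAM1 at 0 in both TGFB1 libraries and at 46.4 to 72.9 with celastrol. The 2 melanocyte markers summed to 8.75 to 14.1 and 95.7 to 134. MLANA went from 0 to 1.23 without celastrol to 84.8 to 124 with it, and PMEL was at 8.75 to 14.1 and 9.28 to 20.6. Their part in the LINC results was not tested. In bulk RNA, a change in the number of cells of a type and a change in RNA per cell cannot be told apart.

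The LINC genes made up a small share of the library and a larger one with celastrol. Summed over the 586 genes, control libraries held 29917 and 29531 normalized reads, TGFB1 libraries 26417 and 26017, celastrol libraries 48234 and 47997, and libraries with both 50097 and 47555. The 4 celastrol libraries lay above the other 4, and both TGFB1 libraries lay below both controls, while celastrol with and without TGFB1 overlapped. As a share of all estimated reads, these genes took 0.115% and 0.116% in control, 0.0884% and 0.0860% with TGFB1, 0.179% and 0.175% with celastrol, then 0.185% and 0.177% with both. The number of LINC genes at 0 was 171 and 149 in control and 201 and 203 with TGFB1, against 0 and 3 with celastrol and again 0 and 3 with both. The deepest library was control replicate 2, with 149 genes at 0, and celastrol replicate 2, with 22615112 reads, had 3. Across groups, 94 members were at 0 in all 4 libraries without celastrol, and 0 members were at 0 in all 4 libraries with it. The same held over the table, with 1227 and 10 of all 24598 genes. Other lncRNA genes had 471 and 5 of 4645, and protein-coding genes 407 and 0 of 15292. A row at 0 in all libraries of one kind is in the table only through the other kind. The numbers at 0 in each library were not set beside those of all genes.

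**Figure D1:**
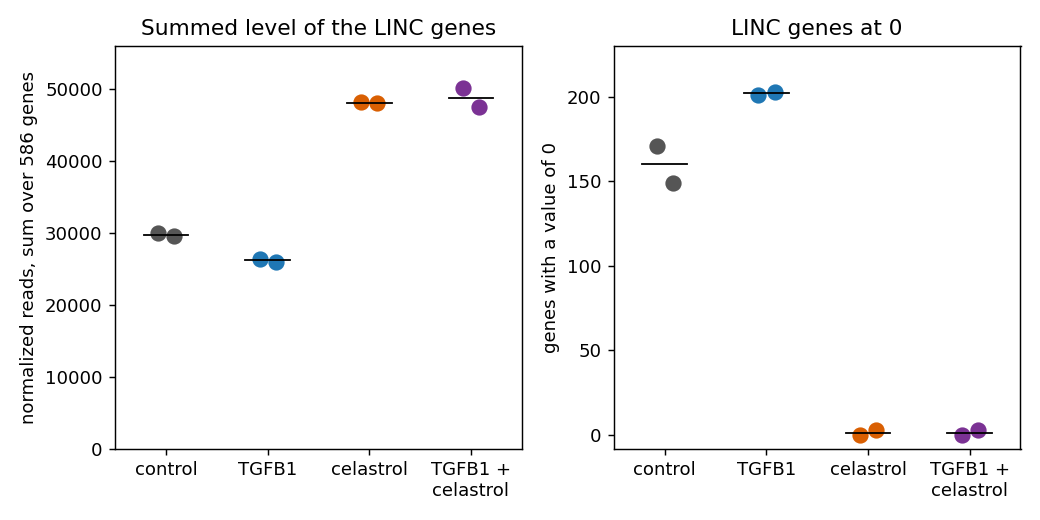
Left, summed normalized reads of the 586 LINC genes in each library, and right, the number of them with a value of 0, for the 4 groups on the x axis. Points are the 2 libraries of a group and bars their mean; the celastrol groups sit between 47555 and 50097 on the left and at 0 to 3 on the right.

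The members were unequal in level. Only 143 of the 586 reached a mean of 50 normalized reads over the 8 libraries and 16 reached 500, and the median member had a mean of 16.6, against 517 for protein-coding genes, on a scale that does not allow for length. LINC00632, the X-linked host transcript of the circular RNA CDR1-AS, had 2365 and 2373 in control, 2788 and 2528 with TGFB1, 2797 and 2416 with celastrol, then 2726 and 2237 with both. Both control libraries lay below both TGFB1 and both celastrol libraries, while the combined group overlapped all 3, and it passed no test (limma adjusted p of 0.314 for TGFB1 and 0.315 for celastrol alone). LINC00667 (chr18:5237826-5290608) had 1098 and 1156 in control, 1234 and 1213 with TGFB1, 1063 and 1067 with celastrol, then 1096 and 1081 with both. Its fall of 0.17 on the log2 scale with celastrol on top of TGFB1 (SE 0.06, limma adjusted p = 0.0376) did not hold with a common total (adjusted p up to 0.886 over the alternatives that lost it) or without either library of TGFB1, of the combined group or of control. LINC01963, which starts 10742 bases past the end of XRCC5, a DNA repair gene, ranged from 761 to 922 over the 8 libraries and passed no test.

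Celastrol raised other abundant members. LINC00963 (chr9:129476946-129513687) had 396 and 442 in control, 347 and 345 with TGFB1, 1225 and 1106 with celastrol, then 1270 and 1053 with both. All 4 celastrol libraries were above all others, and the change on top of TGFB1 was 1.74 (SE 0.11, limma adjusted p = 3.53e-06). LINC00205 went from 686 and 666 with TGFB1 to 1237 and 1186 with both, a log2 change of 0.84 (SE 0.09, adjusted p = 5.99e-05). It starts 61490 bases past the RNA-editing gene ADARB1, but only 152 bases from the start of the coding gene POFUT2 on the other strand. On top of TGFB1, POFUT2 changed by 0.30 (adjusted p = 0.00859) and ADARB1 by -0.73 (adjusted p = 0.000518). With celastrol alone they changed by 0.76 (adjusted p = 6.22e-05) and -0.64 (adjusted p = 0.00142). LINC00641, which starts 2236 bases past the end of HNRNPC, an RNA-binding protein gene, went from 1175 and 1041 with TGFB1 to 1546 and 1454 with both. Its rise of 0.44 (SE 0.08, adjusted p = 0.0016) was 0.15 with each library centred on its median gene (adjusted p = 0.138). LINC00662 and LINC02693 were lower instead, by -0.60 (adjusted p = 0.000239) and -0.48 (adjusted p = 0.000807).

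Per kilobase of exon, which allows levels of different genes to be compared and was available for 493 members from GENCODE 29, the order changed. LINC02595 on the X chromosome led with a mean of 471 normalized reads per kb over the 8 libraries, from a transcript model of 375 bases. LINC00472 followed at 455, LINC00342 at 321, LINC01963 at 269 and LINC02348 at 256. The level of LINC02348 lay almost wholly in the celastrol groups, with 569 per kb in celastrol and 453 in the combined group, against 0 in control and 2.70 with TGFB1.

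Of the 586 members, 504 reached 10 normalized reads in 2 or more libraries, which was the filter, and were tested. Of these, 283 passed only through celastrol libraries and 17 only through libraries without celastrol. A member of the first kind had to be higher with celastrol, so the celastrol counts over the 504 are set largely by the filter. They are given as descriptions, after those over the 221 members that passed through libraries without celastrol, a set chosen after the data were seen and by the reference libraries. The 143 members with a mean of at least 50 were chosen over all 8 libraries, so celastrol levels also helped to place them there, and 10 of them were at 0 in both TGFB1 libraries.

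TGFB1 alone lowered more LINC genes than it raised. Against control, 25 of the 504 rose and 70 fell, while of all 22866 genes tested 12.8% rose and 10.6% fell (limma, Benjamini-Hochberg adjusted p under 0.05). The median log2 change of the members was -0.20, against 0 for all genes, and among the 143 more abundant members 13 rose and 28 fell. Of all genes with a mean of at least 50, 18.3% rose and 12.5% fell, and of other lncRNA genes of that level 8.44% and 17.6%. Other lncRNA genes were alike, with 158 rises (4.01%) and 432 falls (11.0%) among 3945 and a median of -0.20. Of the 95 calls, 26.3% were rises. With each library centred on its median gene the calls were 36 rises and 63 falls (36.4% rises), and that scaling moved the median of all genes by 0.12. With a common total they were 21 and 106, and the median of all genes moved by -0.21. With the 4 compared libraries alone 27 members were called, and without control replicate 2 the count was 63.

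Among the members that rose with TGFB1 was LINC01013 (chr6:132131888-132169374, plus strand), a transcript that has been linked to fibroblast activation. It had 21.3 and 22.8 normalized reads in control, 137 and 139 with TGFB1, 26.3 and 31.5 with celastrol, then 27.3 and 28.6 with both. The TGFB1 libraries stood above all others, and the other 3 groups lay between 21.3 and 31.5. The log2 change with TGFB1 was 2.59 (SE 0.24, limma adjusted p = 0.000143), and with celastrol on top of TGFB1 it was -2.26 (adjusted p = 6.38e-05). The next coding gene upstream on its strand is ENPP1, a nucleotide phosphatase, 236733 bases away. ENPP1 changed by 1.93 with TGFB1 (adjusted p = 9.56e-07) and by -2.23 with celastrol on top of it (adjusted p = 1.76e-07). MOXD1 (chr6:132296055-132401475), on the other strand past the end of LINC01013, is nearer than ENPP1 and was not called with TGFB1 (-0.15, adjusted p = 0.0795). The connective tissue growth factor gene CCN2, named here after its values were seen, lies on the other strand with a gap of 180516 bases, farther than MOXD1. It had 22618 and 21793 in control, 143117 and 157853 with TGFB1, 20523 and 24924 with celastrol, then 24485 and 26064 with both.

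LINC00511, a transcript studied in several cancers, had 78.8 and 97.8 in control and 219 and 270 with TGFB1, and 621, 567, 512 and 637 in the 4 celastrol libraries. Its 3 levels did not overlap, and the TGFB1 change was 1.46 (SE 0.16, limma adjusted p = 0.000392; 0.0572 with the 4 compared libraries alone). LINC01415, whose window with an AP-1 match is shown above, had 23.8 and 18.0 in control, 70.6 and 81.1 with TGFB1, 114 and 82.4 with celastrol, then 153 and 155 with both. Control was lowest and the combined group highest, and TGFB1 raised it by 1.82 (SE 0.24, adjusted p = 0.000958; 0.058 with the 4 compared libraries alone). LINC00862, which starts 4235 bases past the end of the zinc finger gene ZNF281, went from 18.8 and 13.2 to 60.7 and 113, a change of 2.32 (adjusted p = 0.000641; 0.0905 with those 4 libraries alone). LINC02204 and LINC01605 were also higher, by 1.24 (adjusted p = 0.0032) and 1.37 (adjusted p = 0.00886), and with the 4 libraries alone neither passed (0.0643 and 0.122).

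LINC00472, an abundant transcript known as a tumour suppressor candidate in breast cancer, showed the opposite. It had 2475 and 2540 in control, 1184 and 1158 with TGFB1, 1338 and 1434 with celastrol, then 1227 and 1173 with both. Both treatments left it lower than in either control library, by -1.10 with TGFB1 (SE 0.06, limma adjusted p = 1.02e-05) and by -0.86 with celastrol alone (adjusted p = 1.1e-05). On top of TGFB1, celastrol left it at 0.04 (adjusted p = 0.64). LINC00265 (chr7:39733430-39793092), which starts 25310 bases past the small GTPase gene RALA, had 241 and 241 in control, 108 and 94.5 with TGFB1, 208 and 217 with celastrol, then 221 and 201 with both. Only the TGFB1 libraries were low, and the fall was 1.25 on the log2 scale (adjusted p = 0.000276). LINC02595 had 260 and 248 in control, 113 and 101 with TGFB1, and between 157 and 182 in the 4 celastrol libraries, which lay between the other groups.

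A further 3 members fell with TGFB1. LINC02762, which starts 794 bases past PTS, a gene of tetrahydrobiopterin synthesis, went from 168 and 195 to 69.2 and 90.9, a log2 change of -1.18 (limma adjusted p = 0.00196; 0.079 with the 4 compared libraries alone). PTS itself was at 733 and 719 in control and at 912 and 853 with TGFB1. LINC02861, 2801 bases past the adenylyl cyclase gene ADCY9, changed by -1.28 (adjusted p = 0.00461; 0.0947 with those libraries alone). LINC00683 went from 42.5 and 42.6 to 5.65 and 8.60, a change of -2.45 (adjusted p = 0.000436), and reached 79.2 to 104 in the 4 celastrol libraries.

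Names from the fibroblast and cancer literature were looked up whatever their result. LINC01705 had 3.75 and 0 in control and 29.7 and 40.6 with TGFB1, a log2 change of 4.03 (SE 0.63, limma adjusted p = 0.00238; 0.118 with the 4 compared libraries alone). LINC00702 went from 41.3 and 39.6 to 73.4 and 60.2 with TGFB1 (0.70, adjusted p = 0.00888; 0.145 with those libraries alone) and to between 469 and 672 in the 4 celastrol libraries. LINC01711 changed by 1.05 with TGFB1 (adjusted p = 0.031), a call lost with a common total and without any 1 of the 8 libraries (adjusted p up to 0.111). LINC00460 was at 0 to 2.82 in the 4 libraries without celastrol and at 15.4 to 31.5 in those with it. LINC01133 passed no test, at 7.50 to 40.0 over all libraries. LINC01116 ranged from 10.8 to 32.5, and its rise with celastrol alone (1.28, adjusted p = 0.0374) did not hold without any 1 library of control, celastrol or the combined group (adjusted p up to 0.156 over the alternatives). LINC00473, LINC01614, LINC00941, LINC00312 and LINC00520 gave no value under the rule.

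**Figure D2:**
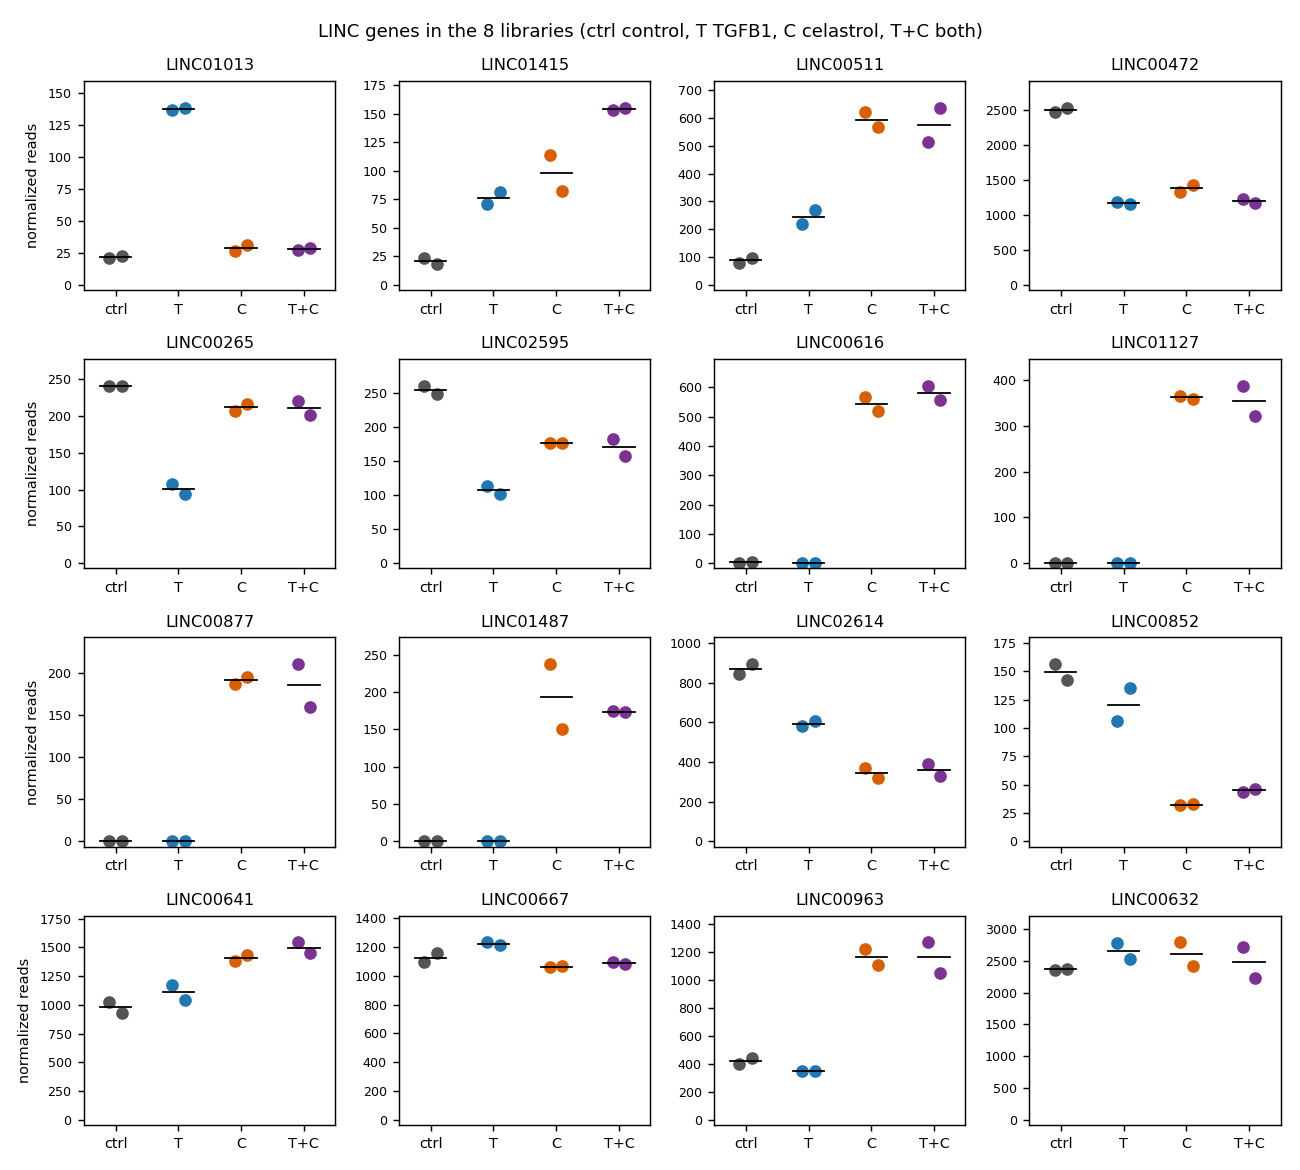
Normalized reads of 16 LINC genes in each library (y axis, linear, from 0), by group on the x axis; points are the 2 libraries and bars their mean. LINC01013 is high only with TGFB1 (137 and 139), LINC00265 low only with TGFB1 (108 and 94.5), LINC01127 and LINC00877 are at 0 without celastrol, and LINC00632 is between 2237 and 2797 in all 8 libraries.

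Celastrol raised more LINC genes than it lowered, whether or not TGFB1 was present. On top of TGFB1, of the 221 members that passed through libraries without celastrol, 104 rose (47.1%) and 33 fell (14.9%), with a median log2 change of 0.67 (limma adjusted p under 0.05). Of all genes that passed in that way 25.5% rose and 32.3% fell, with a median of -0.08, and of other lncRNA genes 35.4% rose and 22.4% fell, with a median of 0.26. Over all 504 members 372 rose and 33 fell, while 37.5% of all tested genes rose and 25.9% fell. The median over the 504 was 2.72, against 0.12 for all genes and 1.40 for other lncRNA genes. Among the 143 members with a mean of at least 50, 91 rose and 17 fell with a median of 1.09, and all genes of that level had a median of -0.10 with 4041 rises and 5281 falls among 14739. Other lncRNA genes of that level had a median of 0.51, with 522 rises and 240 falls among 1043, and protein-coding genes of that level a median of -0.11. For the 127 tested members at 0 in both TGFB1 libraries the size of the fitted change rests on the 1 added before taking logs. With these set to the ratio of the combined group to 3 reads, the median over the 504 was 1.88, and over the 143 it stayed at 1.09.

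Without TGFB1 the picture was alike in kind. Celastrol against control gave 83 rises and 40 falls among the 221, with a median of 0.37, where 22.1% of all genes that passed in that way rose and 26.5% fell. Over the 504 there were 337 rises and 40 falls, beside 33.8% and 21.3% of all genes, with a median of 2.21 (1.95 with bounds) against 0.08. Among the 143, 81 rose and 23 fell, and the median was 0.72. Of all genes of that level 25.3% rose and 28.3% fell, with a median of -0.06. Of other lncRNA genes of that level 42.3% rose and 25.1% fell, with a median of 0.28. In 360 of the 504 members all 4 celastrol libraries lay above all 4 others, and in 31 they lay below, where 34.4% and 23.0% of all tested genes did so. Over all rows of the table, tested or not, celastrol libraries lay above the others in 410 of 586 LINC genes and 8659 of all 24598 genes. The same ordering held for 2462 of 4645 other lncRNA genes and 4561 of 15292 protein-coding genes. Rows could enter the table, as members could enter the test, through celastrol libraries, so these counts are set in part by that. The ordering was not counted over the 221.

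**Figure D3:**
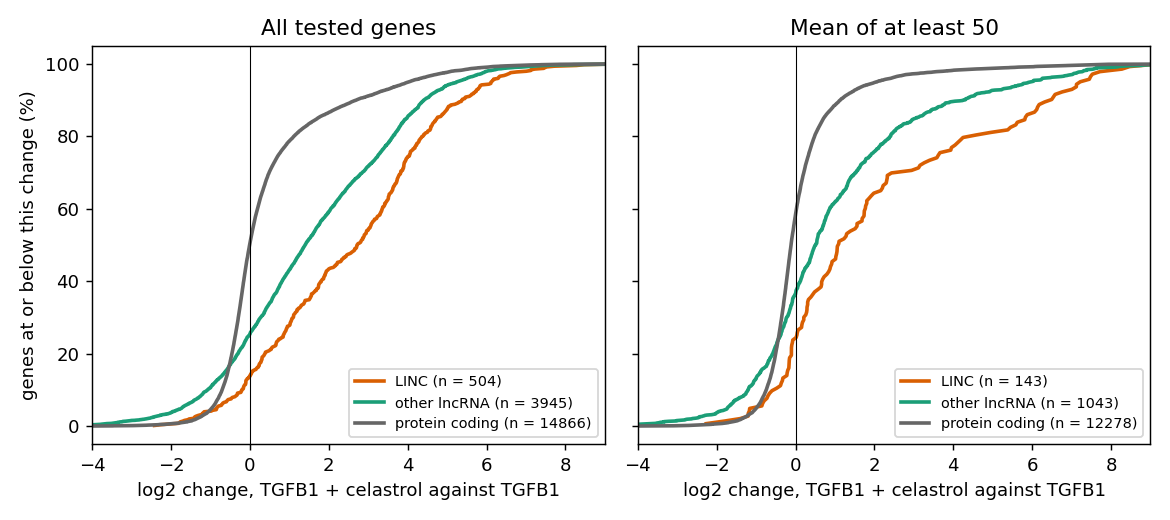
Cumulative share of genes (y axis, percent) by log2 change with celastrol on top of TGFB1 (x axis), for LINC genes, other lncRNA genes and protein-coding genes, over all tested genes on the left and over genes with a mean of at least 50 normalized reads on the right. The LINC curve lies furthest to the right over most of its range in both panels, with medians of 2.72 and 1.09, and the coding curve is centred near 0.

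The largest rise on top of TGFB1 by the log2 change was in LINC00616 (chr4:137978547-138131182, minus strand), which starts 32915 bases past the end of SLC7A11, the cystine and glutamate exchanger. It had 1.25 and 3.60 in control, 0 and 0 with TGFB1, 568 and 520 with celastrol, then 606 and 558 with both. Against TGFB1 this was at least 147-fold higher (limma log2 change 9.19, SE 0.36, adjusted p = 4.54e-07). LINC00616 reached 10 normalized reads only with celastrol, so it had to be higher there to be tested, and its p is a description. The size of the fitted change rests on the 1 added before taking logs. SLC7A11 itself went from 10541 and 12672 with TGFB1 to 19262 and 21098 with both, a log2 change of 0.80 (adjusted p = 0.000656). The member and its neighbour rose in the same libraries by very different amounts.

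LINC01127 (chr2:101962056-101987167) was at 0 in all 4 libraries without celastrol and had 366, 360, 388 and 322 in the 4 with it. This was at least 131-fold higher than control and at least 89.6-fold higher than TGFB1. It starts 67367 bases past the kinase gene MAP4K4, which was called lower on top of TGFB1 (-0.20, limma adjusted p = 0.0181). Nearer to it, on its downstream side and on the same strand, lies the coding gene IL1R2 (chr2:101991960-102028544). IL1R2 was at 0 to 1.23 without celastrol and at 105 to 135 with it, a change of 6.44 on top of TGFB1 (adjusted p = 5.43e-06). It too entered the test only through celastrol libraries, so this p is a description. LINC02245, 14528 bases past RAB1A and on the opposite strand to the transporter gene SLC1A4, which it overlaps, was at 3.75 and 2.40 in control and 0 with TGFB1, and had 285, 333, 293 and 325 with celastrol. It was at least 77.9-fold higher with both than with TGFB1. RAB1A, a membrane traffic gene, was lower in the same comparison (-0.19, adjusted p = 0.00877), so with TGFB1 present both members rose behind a gene that fell. Without TGFB1, celastrol left MAP4K4 at -0.02 (adjusted p = 0.853) and raised RAB1A by 0.20 (adjusted p = 0.00861). The coding gene CEP68 starts on the other strand between LINC02245 and RAB1A, and on top of TGFB1 it changed by 0.02 (adjusted p = 0.866).

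LINC00877, 92322 bases past the Polycomb-associated gene RYBP, was at 0 in all 4 libraries without celastrol and had 187, 195, 210 and 160 with it. It was at least 68.8-fold higher with celastrol than in control, and RYBP rose by 2.10 (limma adjusted p = 4.84e-07). LINC01487, whose window is shown above, lies 57215 bases past MME, which encodes the cell-surface peptidase neprilysin. It was at 0 without celastrol and had 237, 150, 175 and 173 with it, at least 69.8-fold above control, while MME passed neither celastrol test (adjusted p = 0.159 and 0.658). LINC02348, 6913 bases past TM2D3, was at 0 in control and had 261 and 296 with celastrol, at least 100.2-fold higher. LINC01348, 35121 bases past the mitochondrial import gene TOMM20, was at 0 in control and 203 and 167 with celastrol, at least 66.7-fold higher. LINC01498, 7191 bases past SART3, was at 0 in both TGFB1 libraries and had 207 and 212 with both, at least 52.9-fold higher.

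Further members rose from a low but measured level. LINC02731 had 12.5 and 14.4 in control and 2.82 and 3.69 with TGFB1, and 483, 458, 503 and 418 with celastrol. LINC01619, which overlaps the antiproliferative gene BTG1 on the same strand, had 6.25, 3.00, 2.82 and 2.54 without celastrol and 296, 285, 326 and 356 with it. BTG1 rose as well, from 1374 and 1238 with TGFB1 to 4109 and 4142 with both, and reads in the shared stretch could have been divided between them. LINC02324, the first window shown above, was at 0 in both TGFB1 libraries and had 70.8 and 69.3 with both, at least 17.7-fold higher. LINC01620, the other member with a heat shock element match, was at 0 in all 4 libraries without celastrol and between 16.96 and 18.93 in those with it.

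Fewer members fell with celastrol. LINC02614 (chr3:125827238-125916384) had 845 and 894 in control, 581 and 605 with TGFB1, 368 and 319 with celastrol, then 388 and 331 with both. The celastrol libraries were lowest, the TGFB1 libraries intermediate, and the change on top of TGFB1 was -0.72 (SE 0.11, limma adjusted p = 0.000417) and without it -1.34 (adjusted p = 1.83e-05). LINC00852 starts 3201 bases past TATDN2 but overlaps another coding gene on its own strand and the ghrelin gene GHRL on the other, so reads could have been divided among them. It had 156 and 142 in control, 106 and 135 with TGFB1, 31.7 and 32.7 with celastrol, then 43.5 and 46.2 with both, and changed by -2.18 with celastrol alone (adjusted p = 4.32e-05). LINC01515 had 268 and 226 in control and 51.8 and 31.5 with celastrol, a change of -2.58 (adjusted p = 9.14e-05). LINC00894, LINC01670 and LINC02193 were lower by -1.62, -1.88 and -1.13 (adjusted p = 0.000276, 0.00471 and 0.00198). For each of these members the celastrol libraries lay below the control libraries.

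With celastrol present, TGFB1 made no difference to these genes that passed the test. Between the combined group and celastrol alone, 0 of 504 members were called, as were 0.00875% of all genes (limma), and 16 members had an unadjusted p under 0.05. The count was also 0 under every alternative setting. The median log2 change was 0.03, with quartiles of -0.18 and 0.27. LINC01013, 2.59 higher with TGFB1 alone, differed by -0.04 (SE 0.24) when celastrol was present.

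The interaction tested whether the celastrol change depended on TGFB1. It was called in 36 of 504 members, with 30 positive and 6 negative, where 4.36% of all genes were positive and 6.89% negative (limma adjusted p under 0.05). Among the 143 more abundant members 17 were positive and 4 negative, where 5.71% and 10.2% of all genes of that level were. Other lncRNA genes had 145 positive and 63 negative calls among 3945, and their median interaction was 0.24, against 0.32 for the LINC genes. With each library centred on its median gene there were 28 positive and 15 negative, so the share of positive calls went from 83.3% to 65.1%. The count rested on single libraries and was 13 and 7 without combined-group replicate 1 or 2, 14 and 7 without celastrol replicate 1 or 2, and 19 without control replicate 2. LINC00472 (0.89, adjusted p = 0.000536), LINC01013 (-2.63, adjusted p = 0.002), LINC00265 (1.24, adjusted p = 0.00394), LINC00511 (-1.51, adjusted p = 0.0042) and LINC02595 (1.19, adjusted p = 0.00619) were called under every alternative run. In these 5 members TGFB1 and control differed by -1.25 to 2.59 on the log2 scale without celastrol, and by -0.21 to -0.01 with it.

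Distance to the upstream coding gene was the second property described. The distance ran from the end of the nearest coding gene upstream on the same strand to the start of the LINC gene, and its median was 105869 bases over a median LINC span of 23782 bases. A coding gene of the same strand overlapped 26 members, and 38 members overlapped a coding gene on the opposite strand. Among tested members, the median log2 change with celastrol on top of TGFB1 was 1.08 in the 26 that overlapped a coding gene, 2.65 in 33 members up to 5 kb, 2.21 in 27 members at 5 to 10 kb, 3.60 in 121 at 10 to 50 kb, 2.43 in 62 at 50 to 100 kb and 2.70 in 233 beyond 100 kb. Rises numbered 14, 28, 18, 95, 47 and 170 in the same order, with 5, 2, 1, 3, 3 and 18 falls. These counts over all tested members are set in part by the filter. By these fitted changes over all tested members, the classes nearest to a coding gene did not have a higher median than the most distant class. The median within 10 kb minus the median beyond 100 kb was -0.12, with an SD of 0.17 over the pairs of libraries.

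The order of the classes depended on the level of the members. In the 10 to 50 kb class 47 of 121 members were at 0 in both TGFB1 libraries, and with such members at their bound its median was 1.92. With bounds the median was 2.27 up to 5 kb, 2.21 at 5 to 10 kb and 1.93 beyond 100 kb. By these bounded values the nearest classes had higher medians than the most distant class. Among members with a mean of at least 50 the medians were 1.08 with overlap (10 members), 1.74 up to 5 kb (11), 1.39 at 5 to 10 kb (8), 1.92 at 10 to 50 kb (37), 1.33 at 50 to 100 kb (20) and 0.73 beyond 100 kb (55). In this subset the difference between members within 10 kb and beyond 100 kb was 0.83, opposite in sign to that over all tested members. It was also positive, at 0.07, when all rows were kept, at 0.09 without TGFB1 replicate 1 and at 0.13 without combined-group replicate 2, and it was -0.34 without TGFB1 replicate 2.

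**Figure D4:**
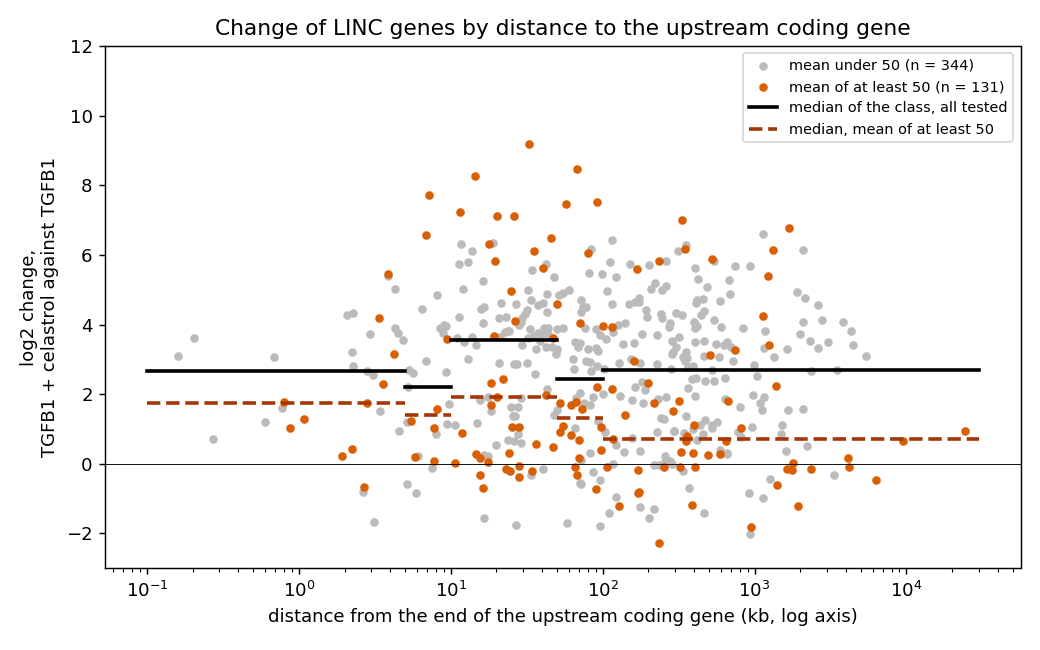
Log2 change with celastrol on top of TGFB1 (y axis) of tested LINC genes that overlap no coding gene on their strand, by the distance from the end of the upstream coding gene in kb (x axis, log scale). Points are genes, orange where the mean is at least 50 normalized reads; solid bars are class medians over all tested genes (2.65, 2.21, 3.60, 2.43 and 2.70) and dashed bars those of the orange genes (1.74, 1.39, 1.92, 1.33 and 0.73).

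Other distances served as a comparison. By distance to the start of the next coding gene downstream on the same strand, members that overlapped no coding gene had medians of 3.30 up to 5 kb (14 members), 3.40 at 5 to 10 kb (12), 2.72 at 10 to 50 kb (50), 1.91 at 50 to 100 kb (50) and 2.98 beyond 100 kb (318). By distance to a coding gene start on the opposite strand, head to head, the 26 tested members within 2 kb had a median of 1.48 with 19 rises and 2 falls, against 2.84 with 353 rises and 31 falls in the other 478. TGFB1 lowered 5 of these 26 and raised 0, and lowered 65 and raised 25 of the other 478, and no test was run between the sets. By upstream class, TGFB1 raised 2 and lowered 17 of the 121 members at 10 to 50 kb, and raised 15 and lowered 33 of the 233 beyond 100 kb.

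Over all tested members, the fitted changes of the upstream gene and the LINC gene were only loosely related, near or far. Many of these members passed the filter through celastrol libraries, so the counts of rises given here are set in part by the filter. The relation over members chosen by the libraries without celastrol was not tested. Over 238 members within 100 kb that overlapped no coding gene of their strand, the log2 changes on top of TGFB1 of member and upstream gene gave a Pearson r of 0.20 and a Spearman rho of 0.24, as a description over points that share libraries. Over 228 members beyond 100 kb, r was 0.11 and rho 0.20. Where the upstream gene rose, 85 of 97 members rose and 2 fell, with a median of 3.64. Where it fell, 52 of 71 rose and 3 fell, with a median of 2.20, and where it was not called, 49 of 70 rose and 4 fell, with a median of 1.79. Beyond 100 kb the rises were 64 of 81, 49 of 76 and 53 of 71. By level in the combined group, members within 100 kb of an upstream gene of at least 1000 normalized reads had a median change of 3.29, against 1.69 where that gene was under 100, and beyond 100 kb the same medians were 3.07 and 1.91.

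Members that share an upstream gene gave a closer view, and 11 coding genes had 2 members within 100 kb. Behind HMGB1, a chromatin protein gene, LINC01058 at 34467 bases had 0 with TGFB1 and 49.8 and 42.9 with both, and LINC00426 at 79559 bases had 4.24 and 2.46, and 294 and 272. The more distant member was the higher of this pair, though these levels are not per length, and the order differed among pairs. Behind ADARB1 the more distant LINC00205 was also the higher, with 1237 and 1186 with both, against 9.11 and 2.20 for LINC00334. LINC00205 starts 152 bases from POFUT2 on the other strand, so ADARB1 was not its nearest coding gene. Behind SIK1 the nearer LINC01679 was the higher, with 275 and 237 with both, against 11.9 and 8.80 for LINC00322. Behind HK2, a hexokinase gene, LINC01291 and LINC01293 rose by 4.95 and 3.62 (limma adjusted p = 2.99e-06 and 1.8e-05), and HK2 by 0.56 (adjusted p = 0.000148). Behind PFKFB3, a glycolytic regulator gene that rose by 0.95 (adjusted p = 3.23e-05), LINC02649 and LINC02656, which overlap each other, were lower instead, by -1.57 and -1.79 (adjusted p = 0.024 and 0.0141). Their levels were 22.6 and 7.37, and 16.9 and 9.83, with TGFB1, and between 2.80 and 4.21 with both. Both LINC02649 and LINC02656 entered the test only through libraries without celastrol, so their p-values are descriptions.

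Genes that end transcripts or remove noncoding RNA were listed as the related machinery, 48 in all. On top of TGFB1, celastrol raised 10 of them and lowered 30, with a median log2 change of -0.35, beside 37.5% raised and 25.9% lowered among all genes (limma). Of protein-coding genes with a mean of at least 50, a level the 48 also reached, 25.9% rose and 38.4% fell, with a median of -0.11. Without TGFB1 celastrol raised 10 and lowered 23, beside 33.8% and 21.3% of all genes and 24% and 30% of those coding genes. TGFB1 alone raised 7 and lowered 1, beside 12.8% and 10.6% of all genes and 20% and 12.8% of those coding genes. Of the 17 cleavage and polyadenylation genes 3 rose and 10 fell, of the 14 Integrator genes 3 rose and 7 fell, and of the 17 genes of the exosome and its cofactors 4 rose and 13 fell. The examples that follow were chosen after their values were seen. PCF11, which helps polymerase to stop, rose by 1.55 (SE 0.07), the Integrator subunit INTS2 by 1.40 and the polyadenylation factor RBBP6 by 1.35. The exosome core genes EXOSC9 and EXOSC2 were lower, by -1.34 and -0.98, the Integrator subunit INTS5 by -1.13 and the exosome nuclease EXOSC10 by -0.72. Whether these changes bear on the LINC genes was not tested. The labels do not give the use of strand in counting, so reads of a LINC gene and of an overlapping gene on the other strand may not have been told apart.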

How the data were processed

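Total RNA from 8 libraries of CCD-1077Sk fibroblasts was extracted with TRIzol and prepared with a VAHTS Total RNA-seq kit, per the labels' protocols. The deposited table gives 1 normalized signal value per gene and library. The submitters' processing notes name Partek 10.0.22, the aligner STAR (2.7.3a), DESeq2 and build hg38 without roles. The annotation release, the counting rule and its use of strand are not given in the sources here used. In each library 73.8% to 75.9% of values lay within 0.02 reads of a multiple of 1 step, so the deposited signal is taken to be estimated reads over 1 size factor a library, and a count model was not used.

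The scale of analysis was log2(value + 1), which draws the fold change of a low gene toward 0. Genes with at least 10 in at least 2 libraries (22866) were fitted with limma 3.58.1 in R 4.3.3, with 1 mean per group over all 8 libraries, a trend of variance on mean and 4 residual degrees of freedom. Two-sided tests were corrected with the Benjamini-Hochberg method over all tested genes within each of 5 comparisons and called under 0.05, and this limma fit gave every adjusted p. The steps were tested on simulated data. The interaction is the celastrol change with TGFB1 minus that without it.

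Positions are those of the deposited table on hg38. In GENCODE 29, 13113 of 23016 genes matched by name had the same start and end. Exon lengths are from GENCODE 29 and promoter sequences from RefSeq (GRCh38.p14).

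Named members were the 10 with the highest mean, up to 6 rises and 6 falls of largest size in each comparison with at least 50 in the higher group and separate libraries, up to 6 interaction calls, the 3 highest in each distance class, up to 6 called opposite to their upstream gene, and a fixed list of names. Other members named beside them share an upstream gene, a motif or a neighbour, and were chosen after their values were seen. The members, lists, tests and alternatives were chosen with earlier results of these data known. The member on chromosome Y enters sums and counts only.

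Replicates carry the numbers in the titles, and celastrol replicate 2 has the number 3 in another label. Libraries of different groups with the same number had deviations correlated at 0.05 to 0.08, so the numbers are not established as pairs. Alternatives were other pseudocounts, filters, scalings, variance models and distance limits, and each library left out.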

Additional observations from a re-analysis of the deposited data

Results flagged for a closer look

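The celastrol change differed with and without TGFB1, by the limma interaction test, in 36 of the 504 tested members. Among the named members the interaction was positive in LINC00265 (1.24 on the log2 scale), LINC00342 (0.79), LINC00472 (0.89), LINC00683 (2.28), LINC01719 (0.65), LINC02245 (2.01), LINC02595 (1.19), LINC02614 (0.62), LINC02731 (1.73), LINC02762 (1.16) and LINC02861 (1.40). It was negative in LINC00511 (-1.51), LINC00862 (-2.20), LINC01013 (-2.63) and LINC01705 (-3.34). LINC00265, LINC00472, LINC00511, LINC01013 and LINC02595 passed under all alternatives run, and each of the other 10 lost its call when at least 1 single library was left out. The levels of LINC02245 without celastrol, given above, were near the limit of 3 reads. With a pseudocount of 5 its interaction was 0.69 (limma adjusted p = 0.206).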

How the results depend on the processing

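Over 127 changes of named members that passed, 1746 of 1890 recomputed values kept their direction and call, 144 kept only their direction, and 0 reversed. With members of mean at least 50, the counts called were 49 for TGFB1, 109 for celastrol on top of TGFB1 and 104 for celastrol alone, from a separate fit and correction over genes of that level only. With the members at 10 or more in 2 libraries without celastrol, a choice made after seeing the data, they were 137 for celastrol on top of TGFB1 and 123 for celastrol alone, among fewer members. With the 4 compared libraries alone the TGFB1 count was 27, as fewer libraries gave the spread. With a single library left out, the counts ran from 63 to 87 for TGFB1, from 359 to 404 for celastrol on top of TGFB1, from 319 to 392 for celastrol alone, from 7 to 37 for the interaction and from 0 to 0 for TGFB1 with celastrol. The difference in median between members within 10 kb and beyond 100 kb was 0.069 with all rows, 0.83 at a mean of at least 50 and -0.34 to 0.13 with a library left out, and the cause was not tested. With coding genes of GENCODE 29 it was -0.26. With the replicate number as a block, the counts were 101, 410, 382, 0 and 45, and the numbers are not established as pairs. Pseudocounts, scalings and the variance model left every total count within 1.5 times its main value, though TGFB1 falls went from 70 to 106 with a common total negative interaction calls from 6 to 15 with median centring and positive ones from 30 to 47 with a common total. Depth limits members near 3 reads, where a value of 0 and a low level were not distinguishable.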

Other observations

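Other abundant members showed values that the comparisons above did not list. LINC00863 (chr10:87341685-87357882, plus strand), which overlaps the coding gene NUTM2D on its strand, had 262 and 232 normalized reads in control, 260 and 179 with TGFB1, then 769 and 830 with celastrol alone and 819.9 and 763 with both. Its 4 celastrol libraries lay above the other 4. LINC00294, which overlaps TCP11L1 on its strand, went the other way, with 420 and 422 in control, 541 and 594 with TGFB1, then 234 and 317 with celastrol alone and 239.8 and 266 with both. LINC01355, behind the RNA-binding protein gene HNRNPR, had 685 and 764 in control and 474 and 431 with celastrol. LINC02035 and LINC00630 passed no test and ranged from 229 to 301 and from 331 to 454 over the 8 libraries.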
